A study of Homo sapiens with 4 samples.

Results

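The genes for the protein parts of the mitochondrial ribosome were taken from the gene table by their symbol and biotype: every protein-coding gene whose symbol is MRPL or MRPS followed by a number. This gave 77 genes of the 51740 listed, 49 named MRPL for the large subunit and 28 named MRPS for the small subunit. MRPS17 was not listed under that symbol, so it is not among the 77. Reads were found for all 77 in these cells, and per kilobase of exon 75 of them lay above the median protein-coding gene. The most abundant per kilobase of exon were MRPS34, MRPL41, MRPL37 and MRPL12, and the least abundant were MRPS22 and MRPS33. From lowest to highest the 77 genes spanned 54.6-fold per kilobase of exon and 32.9-fold per kilobase of canonical transcript. On the canonical scale MRPS33 was still the lowest, but MRPS22 ranked 48th and MRPL12 10th.

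The mitochondrial ribosome translates the few messages encoded by mitochondrial DNA, which in human cells are all for subunits of the respiratory chain and ATP synthase. Its RNAs come from the mitochondrial genome, but every one of its proteins is encoded in the nucleus, translated on cytosolic ribosomes and imported. Some of these proteins descend from bacterial ribosomal proteins. Others, termed mitochondria-specific here, have no counterpart among bacterial ribosomal proteins and were added to the ribosome during the evolution of mitochondria. MRPS18B is an exception: it was listed as mitochondria-specific although it shares an ancestor with bacterial S18.

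The libraries came from HEK293T, a human embryonic kidney cell line carrying the SV40 large T antigen. The cells were wild type, were crosslinked with formaldehyde, and were then split by lysis into nuclei and cytoplasm. Each fraction gave 2 libraries from independent biological replicates, which is 4 libraries in all, made from 400 ng of RNA with ribosomal RNA depleted and read as 100-nucleotide pairs. The study set the fractions against each other to learn where transcripts reside. The value used here is the mean of normalized read counts over all 4 libraries, which pools the fractions, so no level of a gene in the nucleus or the cytoplasm, no spread between replicates and no test between fractions is given.

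The depth behind these means was read from the lowest values. A single read in 1 library adds 0.186, 0.21, 0.293 or 0.331 to a mean, according to the library, and all 9806 means above 0 and up to 2 were whole-number combinations of these 4 steps to within 1e-08. Which step belongs to which library could not be told from the table. The steps bound the reads assigned to genes between 70692651 and 125623986 over the 4 libraries. For the ribosomal protein genes, the standard deviation from counting alone was at most 1.83% of the mean for the median gene and at most 4.08% for the least covered, MRPS36. These figures cover counting error only and leave out any difference between cultures, preparations or fractions.

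Every one of the 77 genes had a mean above 50 normalized counts, and 67 had a mean above 500. The means ran from 199 normalized counts for MRPS36 to 4537 for MRPL37, with a median of 992. Together they held 0.396% of all normalized counts. They made up 0.47% of the normalized counts on protein-coding genes, beside 0.45% of the protein-coding genes with a mean above 0. Because a longer gene can collect more reads, levels are given below as mean normalized count per kilobase of exon. The length is that of all annotated exons of the gene merged. This scale has a limit: the counts include intron reads, and the paper cautions that a spliced length makes genes rich in them look too highly expressed. On this scale the median of the 77 genes was 393 (quartiles 237 and 613), against 82.2 over all protein-coding genes with a mean above 0. The median gene stood at percentile 87.4 of protein-coding genes. In all, 58 of the 77 lay in the top 25% of protein-coding genes and 32 in the top 10%, and MRPS33 and MRPS22 alone lay below the median.

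The merged exon length includes exons of rare transcripts, which makes the level of a gene with many annotated variants look low. Levels were therefore also computed per kilobase of the 1 transcript that the annotation marks as canonical. The highest 10 genes on both scales shared 7 names and the lowest 10 shared 5. Values below are per kilobase of merged exon unless another scale is named, and the plot of levels by gene shows both scales for all 77.

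**Figure D1:**
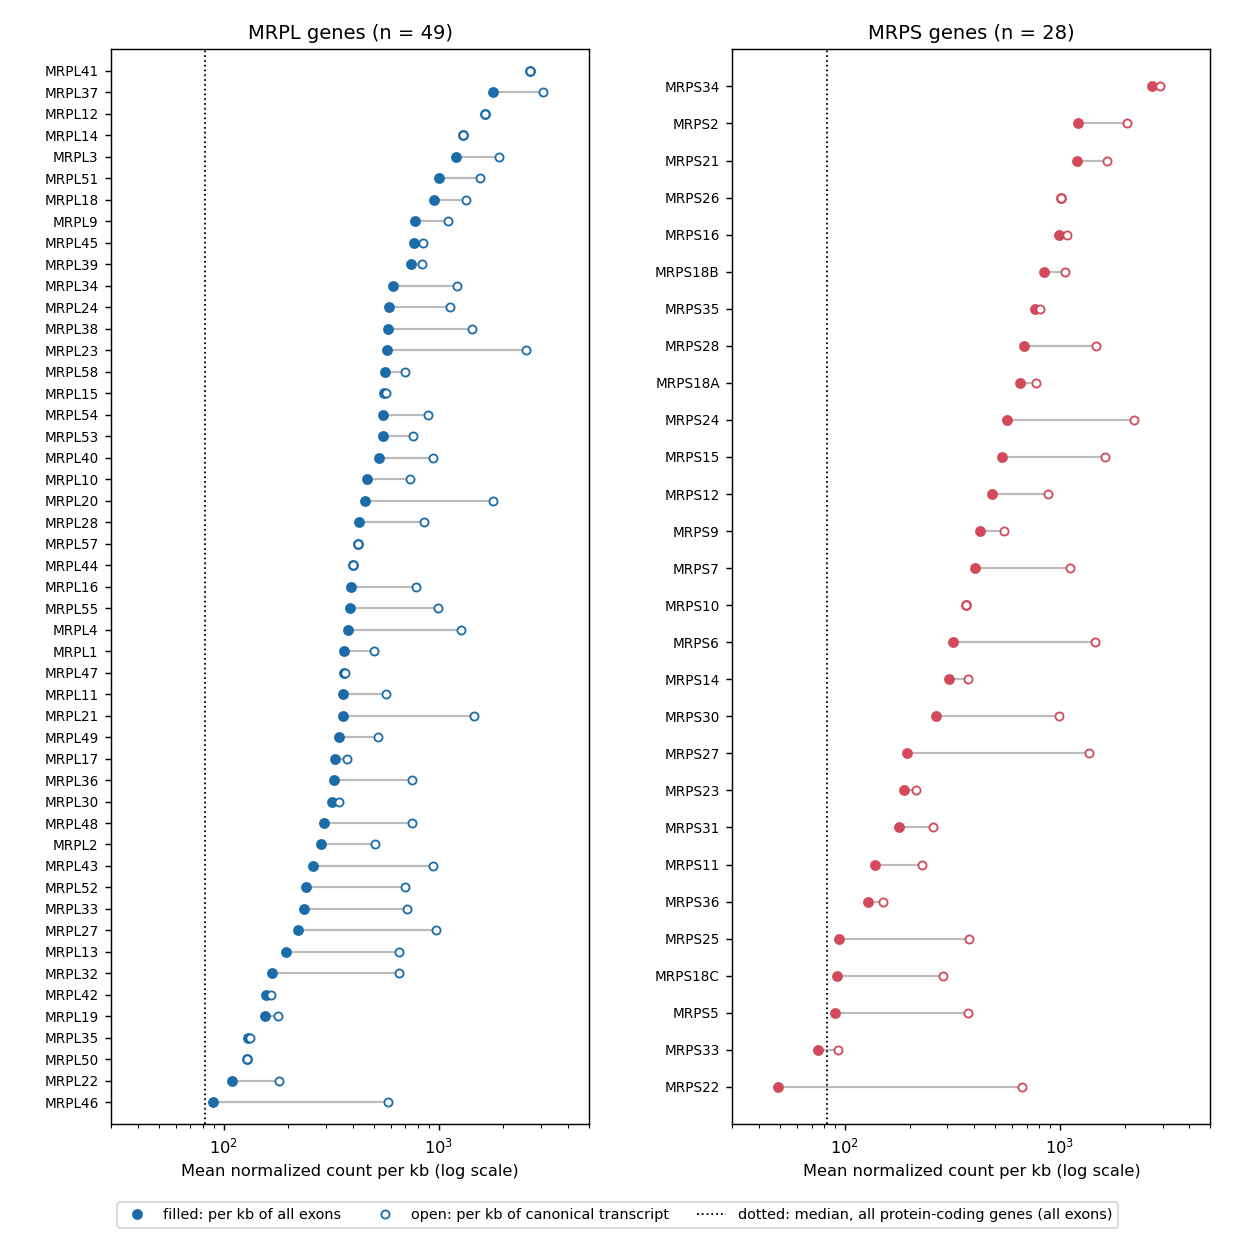
Level of each gene as mean normalized count over 4 libraries per kilobase (log axis), with MRPL genes on the left and MRPS genes on the right, per kilobase of merged exons (filled) and of the canonical transcript (open). The dotted line is the median protein-coding gene per kilobase of merged exons, 82.2, and 75 of the 77 filled points lie to its right.

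The large subunit holds the peptidyl transferase centre and the tunnel through which the new chain leaves. Its 28 genes with a bacterial counterpart had a median level of 370.4 per kilobase of exon. The highest was MRPL12 at 1649 (chromosome 17, 81703367 to 81707517, plus strand, hg38). MRPL12 is the counterpart of bacterial L7/L12, the flexible stalk that contacts translation factors. It was followed by MRPL14 at 1301 and MRPL3 at 1200.2 per kilobase of exon, both proteins of the conserved core. The lowest of the group was MRPL22, whose bacterial counterpart lines the exit tunnel, at 109, with MRPL35 next at 129.7. The span from MRPL22 to MRPL12 was wide against the counting error, which was at most 2.4% and 1.41% of those means. Neither end of the group held per kilobase of canonical transcript. There MRPL35 (133) lay below MRPL22 (181), and MRPL23 (2554), MRPL3 (1908) and MRPL20 (1797) lay above MRPL12 (1649). All 28 lay above the protein-coding median and 22 in its top 25%.

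The 21 mitochondria-specific genes of the large subunit had a median of 419.8 per kilobase of exon, and all 21 lay above the protein-coding median. MRPL41 led them at 2655 per kilobase of exon. It is a compact gene of 0.677 kb (chromosome 9, 137551879 to 137552555, plus strand, hg38). MRPL37 followed at 1780.1 per kilobase of exon and, with the highest mean of the family, was first of all 77 per kilobase of canonical transcript, at 3059.6. MRPL51 reached 1003 per kilobase of exon. The lowest were MRPL46 at 89.7 and MRPL50 at 128 per kilobase of exon. MRPL46 was not low on the canonical scale, where it reached 582, while MRPL50 had the same value on both. Among members of known special role, MRPL45, which lies at the tunnel exit facing the inner membrane, stood at 767, and MRPL58, also known as ICT1 and able to release stalled chains, at 565 per kilobase of exon.

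The small subunit binds the message and decodes it. Its 15 genes with a bacterial counterpart had a median of 425 per kilobase of exon. MRPS2 was the highest at 1210.2, and MRPS21 stood beside it at 1198. MRPS2 was above MRPS21 per kilobase of canonical transcript (2057 against 1656), where MRPS24 was higher than both at 2206. MRPS2 shares 74.3% of its exon length with other genes. Per kilobase of exon outside other genes it had 4700.5 against 1198 for MRPS21, but that value rests on 638 bases. MRPS6 was higher there at 18381, over 74 bases, so this scale does not settle the order. The lowest was MRPS5 at 90.2 per kilobase of exon. MRPS5 had 13.7 kb of merged exons, and per kilobase of canonical transcript it reached 376. MRPS12, the counterpart of the bacterial decoding-centre protein S12, lay at 483 per kilobase of exon.

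The 10 mitochondria-specific genes of the small subunit fell apart by exon-scaled level. Of these, 4 lay at or above 768 per kilobase of exon: MRPS34 at 2677, MRPS26 at 1011, MRPS18B at 842 and MRPS35 at 768. The other 6 lay at or below 194, the value of MRPS27, a pentatricopeptide repeat protein. They included MRPS25 at 94.2, MRPS33 at 74.6 and MRPS22 at 49. The group median, 191 per kilobase of exon, lies within the lower set, while per kilobase of canonical transcript the median was 738. The gap was not seen on the other scale: per kilobase of canonical transcript MRPS27 had 1365 and MRPS22 666, beside 377 for MRPS25 and 810.0 for MRPS35. MRPS33 stayed low on both scales, at 93 per kilobase of canonical transcript, the lowest of the 77.

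MRPS34 (chromosome 16, 1771890 to 1773150, minus strand, hg38) was the highest of all 77 genes per kilobase of exon, at 2677 beside 2655 for MRPL41. The gap between these 2 genes was wider in the same direction per kilobase of canonical transcript (2929 against 2655) and per kilobase of exon outside other genes (3892 against 2655). MRPS34 was not the first of the 77 on either of those scales. MRPL37 was higher per kilobase of canonical transcript at 3060, and MRPS6, MRPS2 and MRPL4 were higher outside other genes. MRPS22 (chromosome 3, 139005806 to 139360497, plus strand, hg38) was the lowest on the exon scale. Its annotation is the longest of the family at 355 kb, with 16.4 kb of merged exons against 1.21 kb in the canonical transcript. Per kilobase of canonical transcript it stood at 666, at percentile 87.1 of protein-coding genes.

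The S18 paralogs share an ancestor in bacterial S18, a single protein in bacteria. Human cells carry MRPS18A, MRPS18B and MRPS18C, which sit at different places in the particle. Despite this ancestry, MRPS18B was counted here with the mitochondria-specific genes. MRPS18B stood at 842 and MRPS18A at 652 per kilobase of exon. MRPS18C, the member found at the position of bacterial S18, was lower at 91.5. The order was the same per kilobase of canonical transcript, at 1058, 776 and 287. Per kilobase of exon outside other genes, MRPS18A came first at 1327, before MRPS18B at 895 and MRPS18C at 179, so MRPS18C alone kept its place. MRPS18A is built into the large subunit despite its name, as is MRPS30. MRPS30 had 264 per kilobase of exon and 989 per kilobase of canonical transcript. MRPS36 carries the family name but is known as an adaptor subunit of the 2-oxoglutarate dehydrogenase complex (KGD4), not as a ribosomal protein. It had the lowest mean of all 77 and a level of 128 per kilobase of exon, 70th in the order of the family.

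By name, the MRPL and MRPS genes had nearly equal medians of 393 and 383 per kilobase of exon. The spread was wider among the MRPS genes: the 90th percentile exceeded the 10th by 11.7-fold, against 6.62-fold for MRPL genes. By origin, the 43 genes with a bacterial counterpart had a median of 393 per kilobase of exon. The 31 genes listed as mitochondria-specific, MRPS18B among them, had a median of 400.4. Neither pair of medians kept its order on every length scale.

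Genes that work with the family were set beside it from lists of their known functions. A further 5 subunits of the particle have no MRP symbol, and all 5 lay in the top 25% of protein-coding genes, with a median of 606 per kilobase of exon. AURKAIP1 was the highest of them at 1413 and PTCD3, a pentatricopeptide repeat protein of the small subunit, the lowest at 241. DAP3, a GTP-binding protein of the small subunit, had 606, and GADD45GIP1 and CHCHD1 had 686 and 422 per kilobase of exon.

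The 24 factors that assemble the mitochondrial ribosome, or modify its RNA, had a median of 231 per kilobase of exon. Of these, 12 lay in the top 25% of protein-coding genes and 21 above the median. NGRN, needed for the large ribosomal RNA of mitochondria, was the highest at 941 and GTPBP10, a GTPase of large-subunit assembly, the lowest at 56.4. The 13 translation factors and related proteins had a median of 245 per kilobase of exon, with 7 in the top 25%. TUFM, the mitochondrial elongation factor that delivers aminoacyl-tRNA, reached 2683, a level close to those of MRPS34 and MRPL41, whereas MTRF1, of the release factor family, had 64.7. The median of the 77 ribosomal protein genes was higher than both per kilobase of exon, at 393, and per kilobase of canonical transcript, where the medians were 788 for the family, 431 for assembly factors and 356 for translation factors. Without division by length the median normalized counts were close, at 992, 972 and 980.2, and the merged exons had median lengths of 2.55, 4.15 and 3.84 kb. These are differences between lists of genes in 1 pooled value, with no test.

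**Figure D2:**
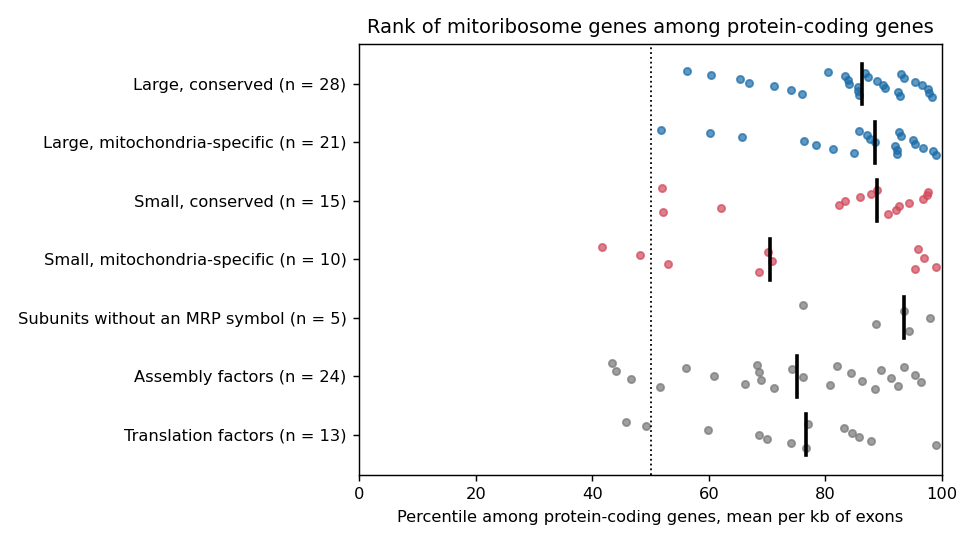
Percentile of each gene among protein-coding genes by mean normalized count per kilobase of merged exons, with a point per gene, a black bar at the median of each list and a dotted line at percentile 50. The large-subunit lists and the conserved small-subunit list have medians between 86.3 and 88.8, and the mitochondria-specific small-subunit list has a median of 70.5, although per kilobase of canonical transcript its median level, 738, was near those of the conserved and mitochondria-specific large-subunit lists, 769 and 758.

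The genes of the family are short and lightly interrupted. Their median span was 12.4 kb, against 32.2 kb over protein-coding genes, and their median merged exon length 2.55 kb against 4.97 kb. The median gene had 6 merged exons, against 10 over protein-coding genes, from 2 in genes such as MRPL41 to 23 in MRPS27. The mean itself followed length little in the family. Its Spearman correlation with span was 0.00762 over the 77 genes and 0.264 over 17083 protein-coding genes. With merged exon length, the divisor of the main scale, the coefficients were 0.144 and 0.4. The exon-scaled level was lower in genes with more exonic sequence (Spearman -0.71, n = 77), whereas over protein-coding genes the coefficient was 0.107. Length enters both quantities of the last pair, so the coefficients describe the scale as well as the genes.

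**Figure D3:**
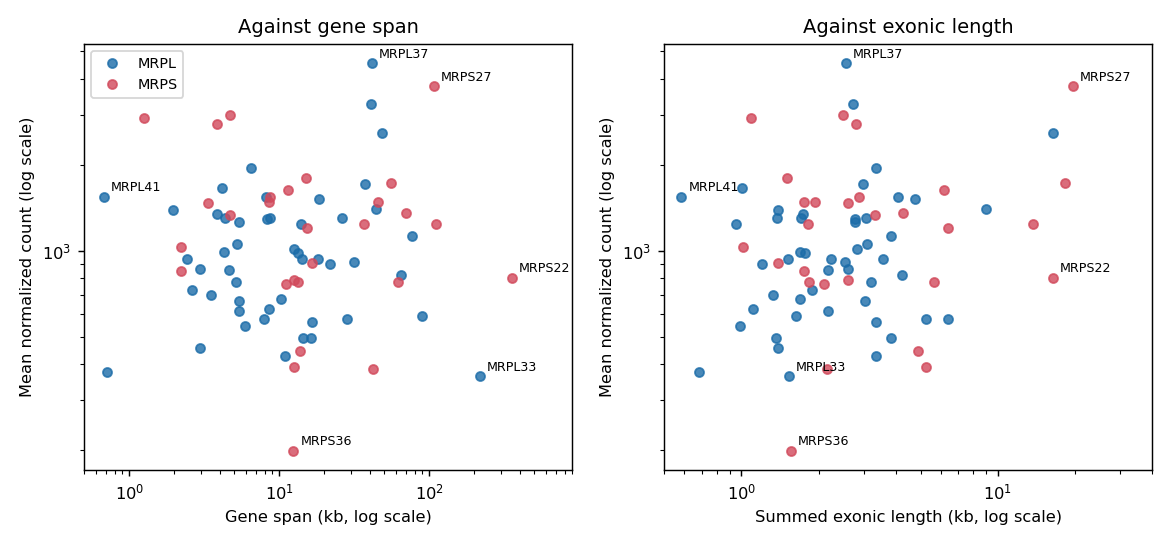
Mean normalized count over 4 libraries (log axis) against gene span (left) and against merged exon length (right), both log axes in kilobases, with a point per gene and MRPL and MRPS genes in blue and red. The means of short and long genes overlap: MRPL41 at 0.677 kb has a mean of 1545, and MRPS22 at 355 kb a mean of 803.

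The reads were counted over exons and introns together, so a level per kilobase of the whole gene was also computed. On that scale the family median was 79.9, against 10.7 over protein-coding genes, and the range widened to 1380.5-fold. MRPS34 and MRPL41, which are almost all exon, stayed at the top with 2318 and 2282 per kilobase of span. MRPL33, which is annotated over 216 kb, was the lowest with 1.68. Other genes cover 95.5% of that span, and per kilobase of span outside them MRPL33 had 37.6. On that measure MRPS22 was the lowest of the genes with such bases, at 2.72. In all, 29 of the 77 genes moved by more than 20 places between the exon and span scales. MRPS28 moved from place 18 to 73 and MRPS35 from 15 to 60, while MRPL17 moved from 48 to 15. Among the 10 highest genes per kilobase of exon, 6 stayed in the upper 10 per kilobase of span. The rest fell: MRPL37 from 3 to 34, MRPL14 from 5 to 36, MRPL3 from 7 to 39 and MRPS21 from 8 to 32.

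Stretches of the genome that belong to more than 1 gene were removed by the authors before counting, so overlap with other genes lowers what a gene can collect. By the annotation used here, 38 of the 77 genes shared some of their exons with another gene on either strand (49.4%, against 53.2% of protein-coding genes). For 14 of the 77 more than 50% of the exon length was shared (18.2%, against 15% of protein-coding genes). MRPS16, MRPL34, MRPL53, MRPL40, MRPL49, MRPL2 and MRPS25 were covered by other genes over their whole span. These 7 still had means between 376 for MRPL53 and 2775 for MRPS16. The annotation used by the authors was an older release, so which bases were counted for these genes is not known, and their levels are less certain than the rest.

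Several of the genes start next to a gene on the opposite strand that runs the other way, an arrangement in which a single stretch lies before both. A protein-coding partner started within 1000 bases upstream of 17 of the 77 genes (22.1%, against 9.23% of protein-coding genes). These were 14 MRPL and 3 MRPS genes. In 1 pair both belong to the family: MRPS11 and MRPL46 start 63 bases apart, and had 138 and 89.7 per kilobase of exon. MRPL47 faces NDUFB5 and MRPL36 faces NDUFS6, each at 41 bases. Both partners encode proteins of respiratory complex I, whose mitochondrially encoded subunits the particle makes. MRPL49 starts 6 bases from FAU, which encodes a cytosolic ribosomal protein, and MRPS12 starts 181 bases from SARS2, the mitochondrial seryl-tRNA synthetase.

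Levels within a pair were often unequal. MRPL49 had 343 and FAU 3337 per kilobase of exon. MRPL10 had 466, and its partner LRRC46, 93 bases away, had 3.35. MRPL52 and SLC7A7, 59 bases apart, had 242 and 4.66. Other pairs were close, such as MRPL27 at 221 and EME1 at 227 per kilobase of exon. The partner was the lower gene in 10 of the 17 pairings, in which MRPS11 and MRPL46 are counted from both sides. The 17 genes with a partner had a median level of 328 and the 60 without had 426 per kilobase of exon, an order that turned per kilobase of span (92 against 73.5).

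The stretch before the start was searched for short motifs of factors known to act on nuclear genes for mitochondrial proteins. NRF1 (nuclear respiratory factor 1) and the ETS family, to which GABPA (nuclear respiratory factor 2) belongs, are the classic examples, and YY1 is another. RefSeq promoters were matched for 68 of the 77 genes, and the 250 bases before the start were read on both strands. The ETS motif CCGGAAG lay in 23 of the 68 (33.8%), against 12% of 14897 protein-coding promoters. The NRF1 motif GCATGCGC lay in 6 (8.82%, against 3.72%) and the YY1 motif AAGATGGC in 5 (7.35%, against 1.41%). General promoter motifs went the other way or were level: GGGCGG (GC box) lay in 37 (54.4%, against 57.1%), CCAAT in 18 (26.5%, against 34.8%) and TATAAA in 2 (2.94%, against 9.09%). No motif contains another, but CCGGAAG and AAGATGGC can overlap by the letters AAG at their ends. The base composition was alike, with a median GC content of 61% for the family and 62.4% for all promoters matched.

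**Figure D4:**
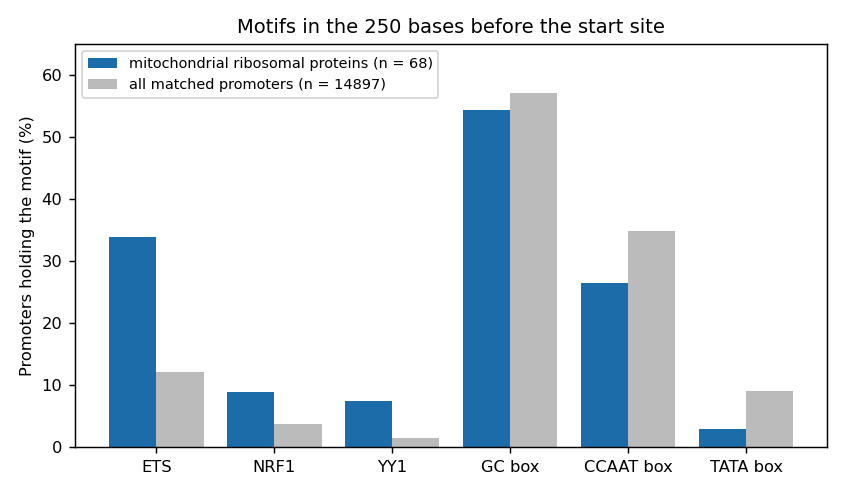
Percent of promoters with at least 1 match to each of 6 motifs in the 250 bases before the start, for the 68 mitochondrial ribosomal protein genes matched (blue) and all 14897 protein-coding promoters matched (grey). The bars of the family stand higher for ETS, NRF1 and YY1 and lower for the GC, CCAAT and TATA boxes.

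None of the 68 held all of ETS, NRF1 and YY1 motifs, against 0.0336% of all promoters matched. Of the 68, 4 (5.88%) held 2 of them, against 1.03%. Those 4 are printed because they carry the most kinds of these motifs. Other genes, such as MRPS34 and MRPL17, held repeated matches to a single kind. Each of the 4 is given as the 250 bases before the RefSeq start, 5′ to 3′ on the strand of the gene. The ETS, NRF1 and YY1 matches on either strand are in capitals. All 4 also have a partner on the opposite strand, so these letters run into NDUFB5, SLC7A7, PSMA2 and HELQ respectively.
MRPL47 (GRCh38.p14, chr3:179604639-179604888, - strand): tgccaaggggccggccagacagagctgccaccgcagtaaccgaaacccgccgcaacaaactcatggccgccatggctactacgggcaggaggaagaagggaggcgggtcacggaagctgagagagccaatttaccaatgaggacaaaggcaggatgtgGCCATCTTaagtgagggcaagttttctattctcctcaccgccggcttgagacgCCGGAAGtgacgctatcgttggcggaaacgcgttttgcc
MRPL52 (GRCh38.p14, chr14:22829637-22829886, + strand): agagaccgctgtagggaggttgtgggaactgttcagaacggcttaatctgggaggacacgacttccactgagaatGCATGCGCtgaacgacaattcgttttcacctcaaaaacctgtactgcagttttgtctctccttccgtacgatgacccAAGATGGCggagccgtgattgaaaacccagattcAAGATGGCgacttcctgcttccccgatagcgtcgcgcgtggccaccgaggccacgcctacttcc
MRPL32 (GRCh38.p14, chr7:42932126-42932375, + strand): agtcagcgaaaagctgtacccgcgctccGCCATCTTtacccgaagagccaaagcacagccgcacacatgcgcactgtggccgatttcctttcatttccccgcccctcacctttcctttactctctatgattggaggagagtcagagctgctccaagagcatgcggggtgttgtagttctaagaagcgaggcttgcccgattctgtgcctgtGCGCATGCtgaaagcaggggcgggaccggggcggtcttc
MRPS18C (GRCh38.p14, chr4:83455808-83456057, + strand): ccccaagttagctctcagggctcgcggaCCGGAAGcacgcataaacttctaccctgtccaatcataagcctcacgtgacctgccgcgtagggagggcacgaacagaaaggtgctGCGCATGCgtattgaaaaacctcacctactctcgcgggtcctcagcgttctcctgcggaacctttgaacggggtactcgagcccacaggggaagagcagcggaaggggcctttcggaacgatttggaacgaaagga
MRPL47 has an ETS match near its start and a YY1 match farther out in the opposite orientation. MRPL52 has 1 NRF1 match and 2 YY1 matches. MRPL32 has a distal YY1 match and an NRF1 match near its start. MRPS18C has a distal ETS match and an NRF1 match between it and the start. The levels of these genes were 362, 242, 167 and 91.5 per kilobase of exon, all below the family median. The median level was 455 for the genes with an ETS match and 393 for those without, and 205 with an NRF1 match and 411 without. For YY1 it was 328 with a match and 402 without. The general motifs differed as well: 483 with and 320 without for the GC box, and 386 and 411 for CCAAT. For TATAAA, found in 2 genes, the medians were 544 and 390. The lists are small, a match is a run of letters and not a measured site, and these values are descriptions with no test.

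The family has left many copies in the genome. The table listed 63 pseudogene rows named after 32 parent genes. Processed pseudogenes, which arise from a spliced message copied back into DNA and so lack introns, made up 59 of them. Of these, 45 were listed at 0 and 57 had no more than 3 reads over all 4 libraries. A value of 0 is limited by the counting: 18 of the 45 lie wholly inside other genes, in bases of the kind removed before counting. The other 27 share none of theirs. Processed copies also resemble the spliced message of their parent. How reads that fit both places were counted is not given in the sources used here, so low values do not show that these copies are silent. The highest was MRPL40P1, with 20 reads and a mean of 4.01. Together the 59 held 42 reads, or 0.0102% of the normalized counts of the family and its pseudogenes. MRPS21 had the most copies, 6, of which 2 were above 0.

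The other 4 are unprocessed, made by duplication of the gene with its introns, and 3 of them had means like those of genes. MRPL45P2 (chromosome 17, 47482992 to 47492459, minus strand, hg38) had a mean of 842 normalized counts, against 1307 for MRPL45. MRPS31P4 and MRPS31P5 had 376 and 334, against 383 for MRPS31, and the remaining copy, MRPS31P2, had 15.8. The 3 copies of MRPS31 together thus held 1.89 times the normalized counts of MRPS31. Scaled by span, which suits rows counted with introns, MRPL45P2 stood at 89 and MRPL45 at 49.9, and MRPS31P4 at 18.9, MRPS31P5 at 17.8 and MRPS31 at 9.12 per kilobase. Copies of this kind resemble their parents along their length, and reads may be divided between them, so the levels of MRPL45 and MRPS31 and of these rows are uncertain. By the annotation used here the exons of all 4 copies also lie wholly inside other genes, so which bases were counted for them is not known.

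**Figure D5:**
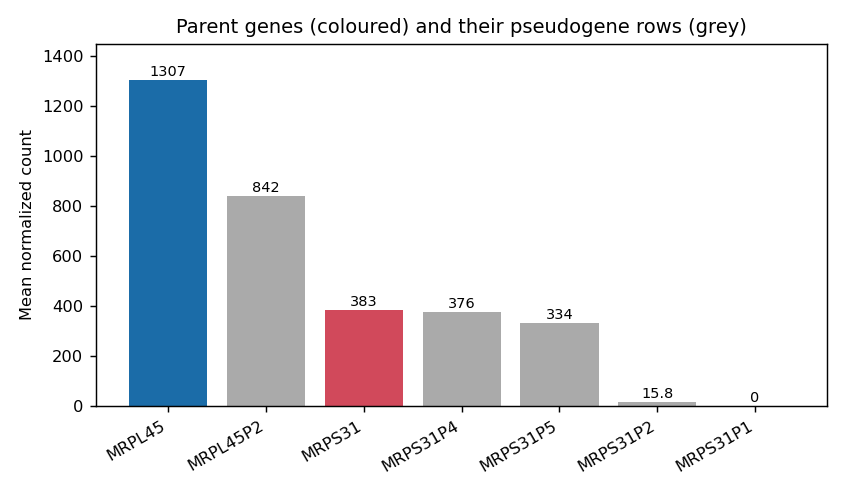
Mean normalized count over 4 libraries (linear axis from 0) of MRPL45 and MRPS31 and of pseudogene rows named after them. MRPS31P4 at 376 and MRPS31P5 at 334 lie near MRPS31 at 383, and MRPL45P2 reaches 842 beside 1307 for MRPL45.

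Noncoding genes named for their place beside a family member were also listed, 6 in all. MRPL20-AS1 had a mean of 503 normalized counts and 198 per kilobase of exon, against 455 for MRPL20. MRPS30-DT, which runs away from MRPS30, had a mean of 346 and 72.9 per kilobase of exon. MRPL23-AS1 was listed at 0. The libraries were made with a stranded kit, but whether reads were counted by strand is not given in the sources used here, so an antisense gene and its partner may share reads where they overlap.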

How the data were processed

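RNA from nuclear and cytoplasmic fractions of crosslinked HEK293T cells was sequenced, with 2 libraries per fraction. The authors aligned the reads to hg38 with STAR, assigned them to exons and introns with featureCounts 2.0.2 over an annotation cleared of bases shared by several genes, and normalized them with DESeq2. The deposited table gives, per gene, a mean of normalized counts over all 4 libraries (unit signal) and 5 columns of the authors' own comparison of the fractions, namely a log2 fold change, its standard error, a statistic, a p-value and an adjusted p-value. Those 5 columns were not used. Since the table gives no value per library, the planned count test between fractions was not run and no difference between fractions is reported.

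The mean was divided by gene length from GENCODE release 44 (hg38, readthrough transcripts left out): merged exons in the main setting, with gene span, exon length outside other genes, no length and the canonical transcript as alternatives, the last chosen after seeing the data. Exon scaling gives genes with many annotated variants a lower level, and genes with many intron reads a higher one. Percentiles are among protein-coding genes with a mean above 0. Counting error was bounded from the worth of 1 read in each library. PCR duplicates were not marked by molecular identifiers, so it covers counting only. Motifs were matched exactly, on both strands. The steps were checked on simulated data. Python 3.11.15 with pandas 2.3.3, numpy 2.4.6, scipy 1.17.1 and matplotlib 3.10.9 was used.

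The members and the lists of conserved, mitochondria-specific, assembly and translation genes were chosen with earlier results of these data known. Genes named were the 10 highest and 10 lowest members per kilobase of exon, any member with a mean of 50 or less (none), the S18 paralogs, MRPS30 and MRPS36, the highest and lowest gene of each list, and the 3 highest pseudogenes. Every other gene named, among them MRPL45, MRPL58, MRPS12, MRPS27, MRPS31, MRPL33 and the neighbours and noncoding genes, was chosen after its values were seen.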

Additional observations from a re-analysis of the deposited data

How the results depend on the processing

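No paired analysis was possible because the table holds a single mean over all 4 libraries. For the same reason the planned comparison of fractions, with its alternative normalization, its filter, the replicate block and each replicate left out, was not run. The ratio of the MRPL median to the MRPS median was 1.03 per kilobase of exon and 1.47 per kilobase of span. It turned below 1 at 0.909 outside other genes, 0.756 without division by length, 0.978 with MRPS30 and MRPS18A counted in the large subunit and MRPS36 left out, and 0.896 per kilobase of canonical transcript. The ratio of genes with a bacterial counterpart to mitochondria-specific genes was 0.982 per kilobase of exon and 0.861 outside other genes, and turned above 1 at 1.13 per kilobase of span, 1.08 without length and 1.13 per kilobase of canonical transcript. Neither ratio therefore has a settled direction, and length choice alone moves it. The median percentile of 87.4 became 87.0 per kilobase of span, 85.2 outside other genes, 67.8 without length, 89.7 per kilobase of canonical transcript, 88.7 among all protein-coding genes listed and 82.3 among those with a mean over 50, so it was above 50 in each. The share of normalized counts was 0.396% of all genes, 0.470% of protein-coding genes and 0.462% without the 10 genes with the highest means. The pseudogene share was 1.67%, and 1.64% with pseudogenes over a mean of 50 alone. All 77 genes passed a minimum mean of 10 or 50, and 67 passed 500. Depth limits few of these values, but the spread between libraries could not be measured.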
